A study of Anguilla anguilla with 3 samples.

Results

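Ovary messenger RNA of a European eel (Anguilla anguilla) matured and sampled after spawning was set against that of a yellow eel, the growing life stage that comes before the change to the silver migrant. The comparison takes in all 45974 predicted genes of the deposited count table, of which 32673 (71.1%) carry the name of their most similar protein. Each group is 1 animal, with tissue from the anterior, middle and posterior gonad pooled before extraction. The matured eel and the yellow eel came from Lake Veerse in The Netherlands, the matured eel in late May and the yellow eel in late April of the same year. Another library, from a prepubertal silver eel of another lake caught in December, entered the scaling and is quoted as context only. How the matured eel was brought to spawning is not analysed here, and with 1 eel a side the stage cannot be told apart from the individual, its age, its history or the sampling date. No difference therefore has a replicate check and no p-value was computed. Intervals of folds are 95% exact binomial (Clopper-Pearson) intervals, which cover counting error only and leave out differences between eels. Because reads of an amplified library are not independent molecules, they may be too narrow even for counting error.

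Teleost ovaries hold growing oocytes, each inside a follicle of granulosa and theca cells that make steroids under the control of pituitary gonadotropins. Follicles take up yolk precursors from the blood, build an egg coat of zona pellucida proteins, and at the end of growth switch to making progestins, which restart meiosis before ovulation. After spawning, the emptied follicles and the remaining oocytes are broken down and cleared, while the smallest oocytes persist. Yellow eels have immature ovaries with small oocytes that have not begun to take up yolk in earnest.

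The matured library held 30137882 reads assigned to genes and the yellow library 27811764, and reads fell on 36622 and 36226 genes in the matured and the yellow library. Counts were scaled for library size and composition to counts per 1000000 reads (CPM). Ratios used below for counting genes are log2 ratios of matured to yellow after adding 1 CPM to both, while the fold of a single gene is the ratio of its scaled counts without that addition. Only genes that reached 10 CPM in 1 of these libraries or in both were tested, and a call of higher or lower needed a ratio of 4-fold. Oocyte genes were read in both ovaries, with gdf9 and bmp15, growth factors secreted by the oocyte, at 32.0 and 111 CPM in matured and 60.9 and 117 CPM in yellow ovary, so that both libraries carry the defining transcripts of the labelled tissue. Foxl2, a transcription factor of granulosa cells, summed to 26.1 CPM in matured and 4.21 CPM in yellow ovary over its 3 rows. In bulk tissue, fewer cells of a type and less RNA per cell cannot be told apart, and this holds for each group of genes given here.

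Among the 12553 genes tested, the matured ovary was higher by 4-fold or more in 426 (3.39%) and lower by as much in 325 (2.59%). Together these 751 genes were 5.98% of those tested, and 9194 genes (73.2%) lay within 2-fold. Differences of 16-fold or more ran mostly upwards, with 47 genes higher and 24 lower, whereas at 2-fold 1426 were higher and 1933 lower. The split between directions depended on scaling. With library totals alone, 628 genes were higher and 217 lower, so that 74.3% of called genes were higher in place of 56.7%. It depended on level too, since among genes that reached 50 CPM 86 were higher and 111 lower. With library totals alone the genes averaging at least 1 CPM had a median log2 ratio of 0.19, against -0.04 over 24641 genes with composition scaling. Medians of gene groups, where given below, are therefore to be read beside this median of -0.04.

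**Figure D1:**
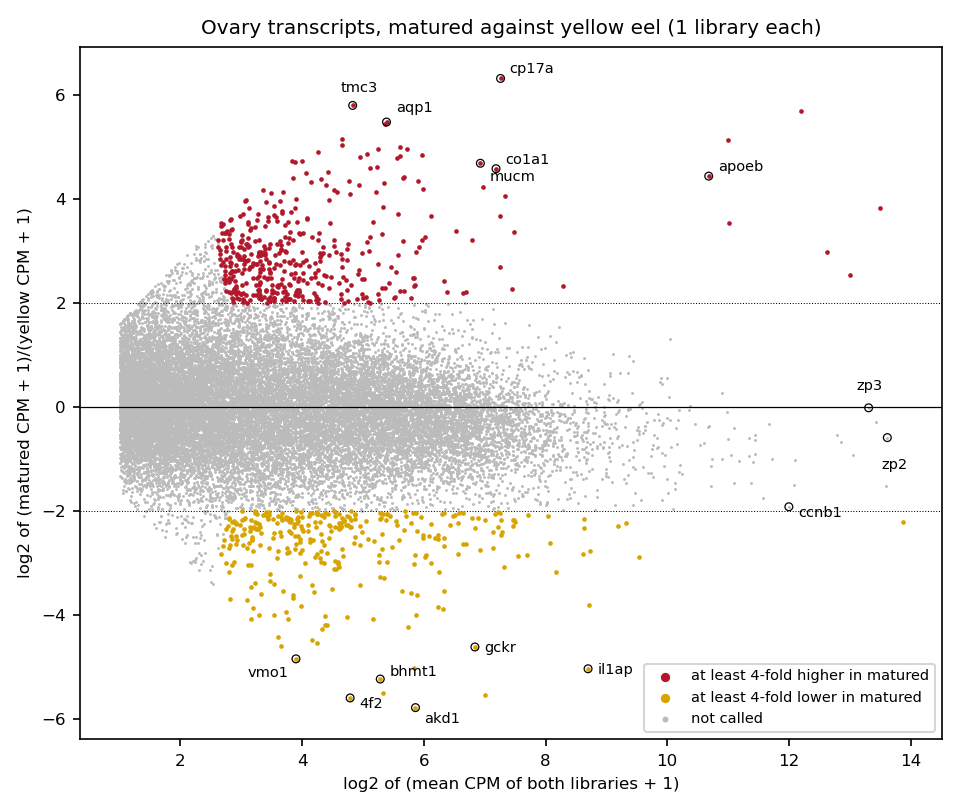
Log2 ratio of matured to yellow ovary (vertical axis, 1 CPM added to both) against mean level in CPM (horizontal log axis), with each point a predicted gene. Coloured points are the 426 genes at least 4-fold higher and the 325 at least 4-fold lower in the matured ovary, and most of the other genes lie within 2-fold.

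The genes were also read by 30 pathway lists and 11 marker lists. Counts of called rows in a list stand against 3.39% higher and 2.59% lower over all tested genes. Collagens had the highest median log2 ratio of the pathway lists at 1.84, followed by ovarian somatic and sex genes at 1.499, while histones at -0.87, egg coat genes at -0.67 and oocyte and germ line genes at -0.54 had the lowest. Cytosolic ribosomal proteins, at 0.11, and nuclear genes of oxidative phosphorylation, at 0.19, stood close to the median of all genes.

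**Figure D2:**
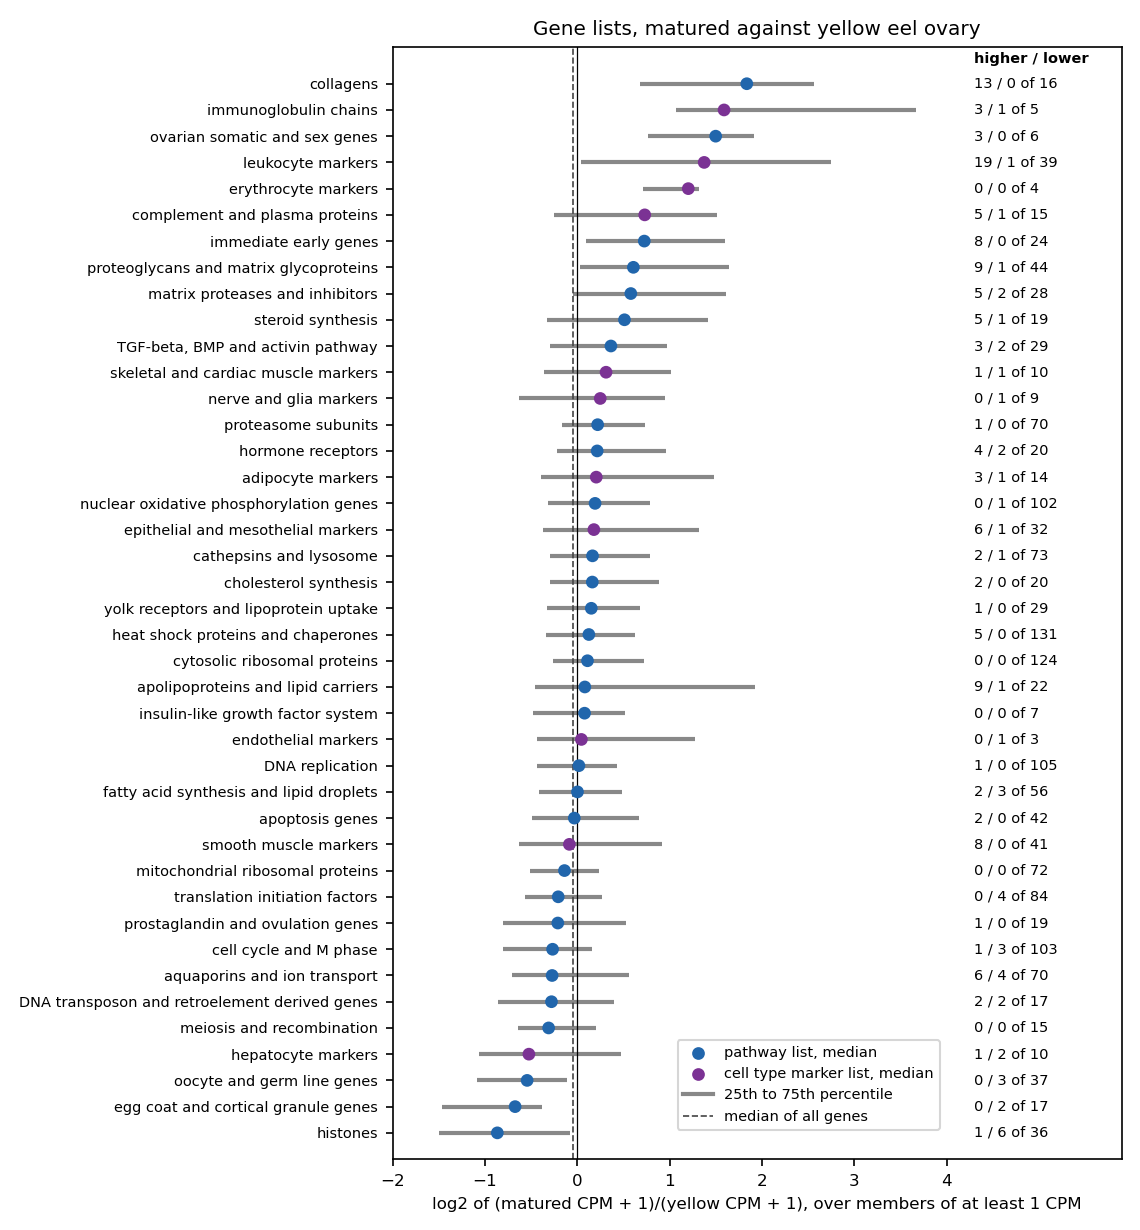
Median log2 ratio of matured to yellow ovary (horizontal axis) for each gene list (rows), with the spread of its members between the lower and upper quartile. Collagens lie farthest to the right at 1.84 and histones farthest to the left among pathway lists at -0.87.

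Several steroid-making genes were among the largest differences of the comparison. All 3 rows named cp17a, the 17-alpha-hydroxylase and 17,20-lyase that turns progestins into androgen precursors, were higher in the matured ovary. Row g22995 had 302 CPM in the matured and 2.78 CPM in the yellow library, from 10448 and 74 reads, and was 109-fold higher (95% interval 86.4 to 138). Row g10692 had 101 CPM in the matured and 2.29 CPM in the yellow library (44.2-fold higher), and row g38561 had 20.2 CPM in matured and 0.226 CPM in yellow ovary (89.6-fold higher). In the order yellow, silver and matured, g22995 stood at 2.78, 31.1 and 302 CPM. Dhb1, a 17-beta-hydroxysteroid dehydrogenase known in mammals for making estradiol from estrone, had 71.1 CPM in the matured and 6.20 CPM in the yellow library and was 11.5-fold higher (95% interval 9.78 to 13.5). Cp11a, the side-chain cleavage enzyme that starts steroid synthesis from cholesterol, had 53.6 CPM in matured and 8.95 CPM in yellow ovary and was 5.99-fold higher (95% interval 5.23 to 6.88). Adrenodoxin reductase (adro), which passes electrons towards that enzyme, had 23.2 CPM (matured) and 7.63 CPM (yellow) (3.04-fold higher), and the carrier adrenodoxin (adx) had 52.0 CPM (matured) and 67.5 CPM (yellow).

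Other steroid enzymes ran in both directions. Both rows of 3bhs, the 3-beta-hydroxysteroid dehydrogenase that makes progesterone from pregnenolone, were lower in the matured ovary without reaching 4-fold, with 53.4 CPM (matured) and 70.8 CPM (yellow) for g10190 and 14.2 CPM (matured) and 29.7 CPM (yellow) for g33843. Sts, steroid sulfatase, which frees steroids from their sulfate esters, had 6.47 CPM in the matured and 34.9 CPM in the yellow library and was 5.39-fold lower (95% interval 4.66 to 6.27). Aromatase (cp19a), which makes estrogens from androgens, was scarce in both ovaries. Row g9349 had 0.954 CPM (matured) and 0.150 CPM (yellow), from 33 and 4 reads, and was 6.34-fold higher (95% interval 2.26 to 24.6), and row g9348 had 0.751 CPM (matured) and 0.526 CPM (yellow). Cbr1, a carbonyl reductase that in some teleosts has a form making the maturation-inducing progestin, had 162 CPM (matured) and 98.1 CPM (yellow) (1.65-fold higher). The corticosteroid dehydrogenase dhi2, which inactivates cortisol in mammals, had 25.2 CPM (matured) and 10.00 CPM (yellow) for g12369 (2.52-fold higher) and 2.37 CPM (matured) and 0.263 CPM (yellow) for g16135 (9.01-fold higher). In all, 5 of 19 steroid synthesis rows were higher and 1 lower, against 3.39% and 2.59% of all genes. The list summed to 1137 CPM in matured and 603 CPM in yellow ovary, with a median log2 ratio of 0.51 over 25 measured rows. Of these sums cp17a alone gave 423 CPM in matured and 5.30 CPM in yellow ovary, and its 3 rows were among the 5 called higher.

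Receptors for sex steroids were mostly more abundant in the matured ovary, from low levels. Prgr, the nuclear progesterone receptor that in fish and mammals is needed for ovulation, had 13.4 CPM in the matured and 0.564 CPM in the yellow library and was 23.7-fold higher (95% interval 14.2 to 42.7). Andr, the androgen receptor, had 29.6 CPM (matured) and 5.98 CPM (yellow) for g5987 and was 4.95-fold higher (95% interval 4.19 to 5.89). Rows of estrogen receptor beta went opposite ways, with esr2 g6324 at 12.4 CPM (matured) and 1.92 CPM (yellow), 6.48-fold higher, and esr2 g9961 at 10.3 CPM (matured) and 14.8 CPM (yellow), 1.45-fold lower. Nr5a2, an orphan receptor that drives steroid synthesis genes in mammalian granulosa cells, did the same, since row g8768 had 18.1 CPM (matured) and 1.80 CPM (yellow) and was 10.0-fold higher, and row g19817 had 22.3 CPM (matured) and 99.7 CPM (yellow) and was 4.46-fold lower. Rarb, a retinoic acid receptor, had 18.4 CPM (matured) and 90.2 CPM (yellow) for g23582 and was 4.89-fold lower (95% interval 4.48 to 5.35), whereas rarb g5924 had 16.7 CPM (matured) and 7.18 CPM (yellow) (2.32-fold higher, not counted). Gonadotropin receptors were scarce. The luteinizing hormone receptor lshr g12514 had 1.13 CPM (matured) and 0.0376 CPM (yellow), from 39 and 1 reads, and was 30.0-fold higher (95% interval 5.07 to 1214). The follicle-stimulating hormone receptor fshr had 1.76 CPM (matured) and 0.752 CPM (yellow). Estrogen receptor alpha (esr1) had 7.6 CPM (matured) and 2.48 CPM (yellow) for its row g23190. The anti-Müllerian hormone and the 11-beta-hydroxylase of the fixed gene set matched no row and were not analysed here. Of 20 receptor rows tested, 4 were higher and 2 lower, against 3.39% and 2.59% of all genes, with a median of 0.22.

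Somatic cell genes of the ovary ran higher. Gata6, a transcription factor of granulosa and theca cells, had 43.4 CPM in the matured and 5.15 CPM in the yellow library and was 8.42-fold higher (95% interval 7.07 to 10.1). Foxl2 g429 had 25.1 CPM (matured) and 3.65 CPM (yellow) and was 6.90-fold higher (95% interval 5.59 to 8.60). Wt1b, one of the Wilms tumour factors, had 18.5 CPM (matured) and 4.81 CPM (yellow) (3.84-fold higher), and cp26a, which breaks down retinoic acid, had 6.85 CPM (matured) and 27.4 CPM (yellow) (3.995-fold lower, a log2 ratio of -1.85 after the addition of 1 CPM and so not counted). The list had 14 of 15 measured rows above a ratio of 0 and 3 of 6 rows called higher. Besides gata6 and foxl2 g429, the row called was the growth factor tgfb1, which the TGF-beta, BMP and activin list also counts.

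**Figure D3:**
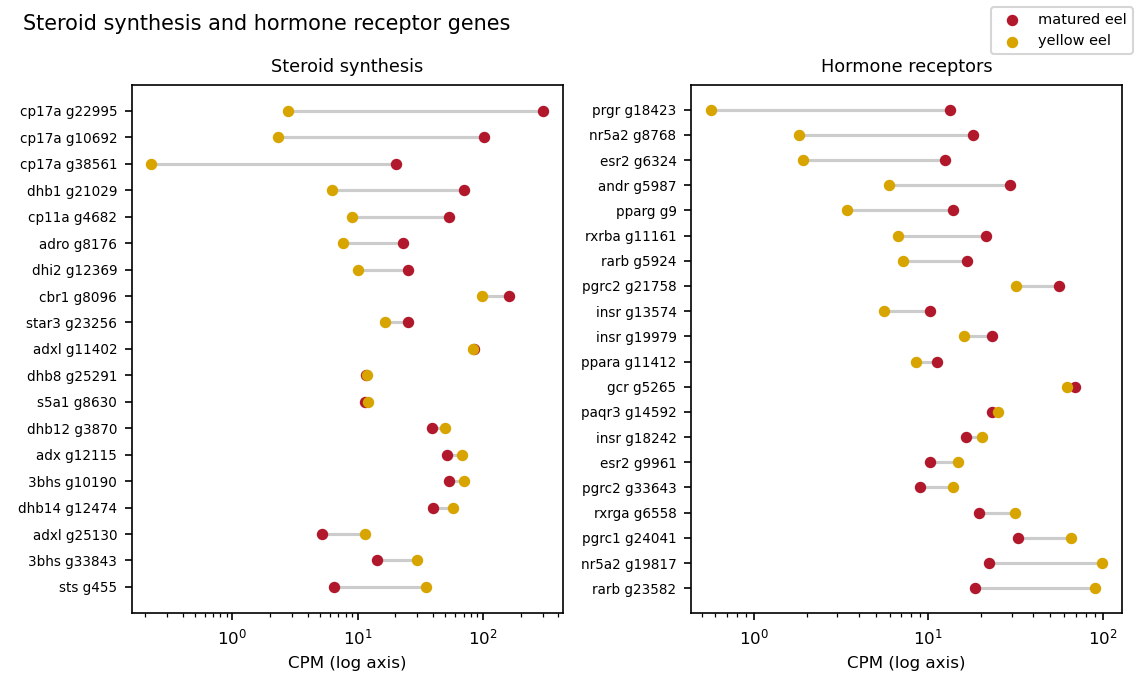
Levels in CPM (horizontal log axis) of steroid synthesis rows (left) and hormone receptor rows (right) that reached 10 CPM in either library, each row 1 gene with a red point for the matured and a yellow point for the yellow eel. The 3 cp17a rows have the longest lines on the left, with the red points between 20.2 and 302 CPM and the yellow points between 0.226 and 2.78 CPM, and prgr has the longest on the right.

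Genes of the egg coat and of the oocyte were read at high levels in both ovaries and were mostly lower in the matured one. Zona pellucida proteins form the inner egg coat, and in teleosts the ovary or the liver makes them. Per kilobase of transcript, zp3 g36576 had 10390.5 CPM per kilobase in matured and 10507 in yellow ovary, which made it the most abundant named gene of the matured library. Its level of 10099.5 CPM in matured and 10213 CPM in yellow ovary gave a ratio of 1.01-fold lower, which became a log2 ratio of 0.25 with library totals alone. Zp2 had 10033 CPM in the matured and 15099.9 CPM in the yellow library and was 1.51-fold lower (95% interval 1.498 to 1.51). Zp4 g20520 had 493 CPM (matured) and 1567 CPM (yellow) and was 3.18-fold lower (95% interval 3.12 to 3.23), and zp1 g15786 had 1405 CPM (matured) and 3895 CPM (yellow) (2.77-fold lower). Among zona pellucida rows zp3 g29228 was called, with 9.42 CPM in the matured and 68.3 CPM in the yellow library, 7.25-fold lower (95% interval 6.44 to 8.19). Vmo1, named for the outer layer of the bird vitelline membrane, had no reads in the matured library against 27.8 CPM in the yellow library, at least 321-fold lower, and none in the silver library.

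All 19 measured egg coat rows were below a ratio of 0, although 3 of them turned slightly positive with library totals alone, and the median was -0.67 (-0.41 with library totals alone). Their sum was 37457 CPM in matured and 54649.6 CPM in yellow ovary, and 2 of 17 were called lower. Zona pellucida rows share names and sequence, and in zp4 g4509 only 16.9% of matured and 15.8% of yellow reads aligned uniquely, so its 223 CPM (matured) and 276 CPM (yellow) may hold reads of its copies.

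The oocyte and germ line list had 47 of 58 measured rows below 0, and its median was -0.54 (-0.32 with library totals alone). Zar1, a maternal factor needed for the first cleavages in mice, had 2 rows of which g14809 was at 445 CPM (matured) and 1745 CPM (yellow), 3.92-fold lower (95% interval 3.85 to 3.99), and g19436 at 637 CPM (matured) and 828 CPM (yellow), 1.30-fold lower. Nobox, an oocyte transcription factor, had 25.5 CPM (matured) and 90.7 CPM (yellow) and was 3.55-fold lower. Tudor domain genes, which serve the piRNA pathway that silences transposons in germ cells, ran in both directions. Tdrd7 g42983 had 0.896 CPM (matured) and 10.2 CPM (yellow) and was 11.4-fold lower (95% interval 7.85 to 17.1), and tdrd1 had 36.0 CPM (matured) and 152 CPM (yellow) and was 4.23-fold lower (95% interval 3.97 to 4.51), whereas tdrd7 g31229 had 6.96 CPM (matured) and 4.21 CPM (yellow) (1.65-fold higher) and tdrd6 had 139 CPM (matured) and 97.8 CPM (yellow) (1.42-fold higher). Msi2h g22697, a Musashi RNA-binding protein, had 2.66 CPM (matured) and 13.0 CPM (yellow) (4.89-fold lower, log2 ratio -1.94, not counted). Cpeb2, a relative of the cytoplasmic polyadenylation factor cpeb1, had 6.04 CPM (matured) and 27.9 CPM (yellow) (4.62-fold lower), while cpeb1 g6198 itself had 554 CPM (matured) and 502 CPM (yellow) and ddx4 g14613, the germ cell helicase Vasa, had 75.9 CPM (matured) and 66.3 CPM (yellow). Growth factor gdf9 was 1.90-fold lower (95% interval 1.76 to 2.06), and bmp15 differed by 1.05-fold. Dazl, an RNA-binding protein of germ cells, had 34.7 CPM (matured) and 69.3 CPM (yellow). Mos, the kinase that holds the egg at metaphase of the second meiotic division, had 219 CPM (matured) and 419 CPM (yellow) and was 1.92-fold lower. The list held no row called higher and 3 of 37 called lower.

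**Figure D4:**
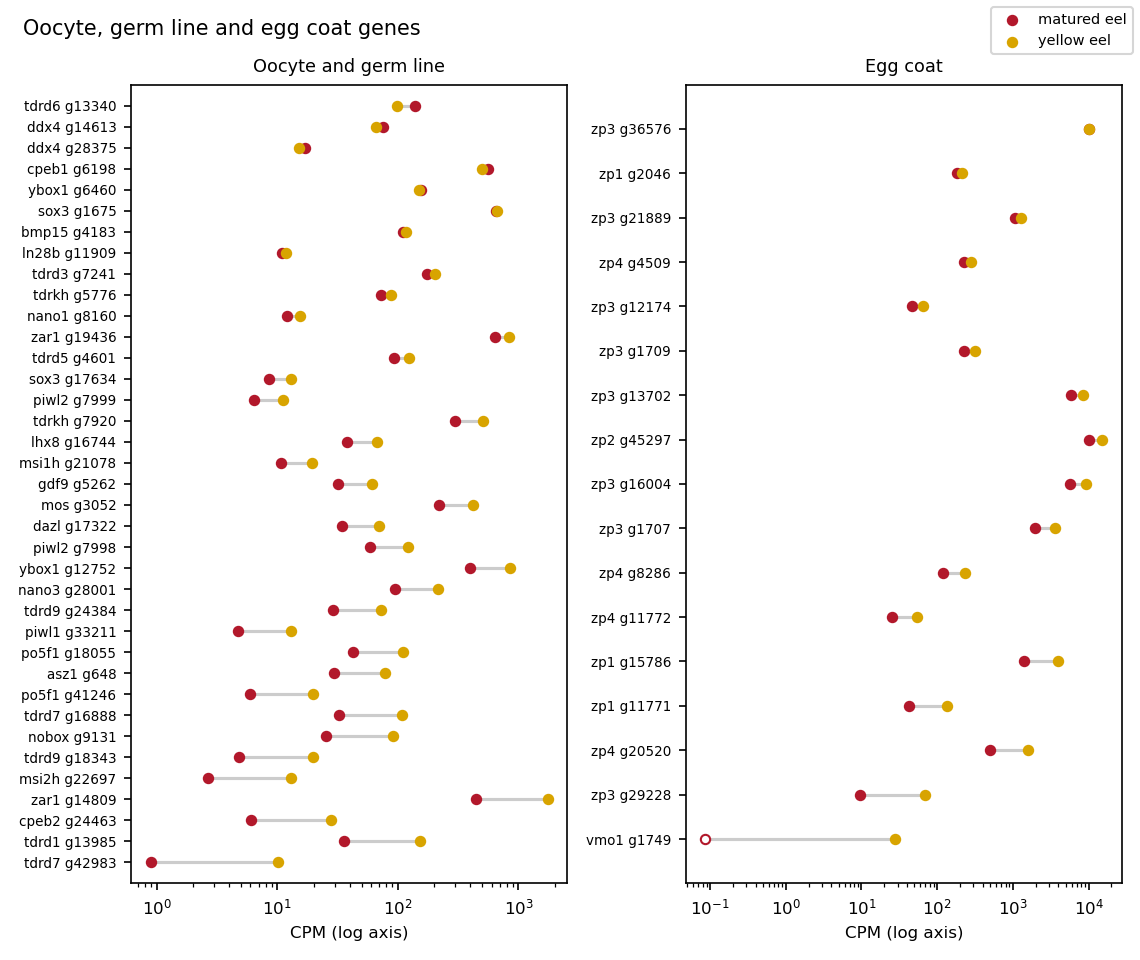
Levels in CPM (horizontal log axis) of oocyte and germ line rows (left) and egg coat rows (right) that reached 10 CPM in either library, with a red point for the matured and a yellow point for the yellow eel. Yellow points lie to the right in all but the top 5 rows of the left panel, and the open circle marks vmo1, which had no matured reads and is drawn at the floor of 3 counts.

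Yolk uptake genes had few called rows. All 4 vldlr rows, copies of the receptor that brings vitellogenin into the oocyte, were lower in the matured ovary without reaching 4-fold: g14275 had 439 CPM (matured) and 747 CPM (yellow), g14276 had 743 CPM (matured) and 1617 CPM (yellow), g1875 had 126 CPM (matured) and 227 CPM (yellow) and g40667 had 90.6 CPM (matured) and 299 CPM (yellow). In g14276 only 14.5% of matured and 20.1% of yellow reads were unique, so the split between copies is uncertain. Lipl, lipoprotein lipase, which releases fatty acids from lipoproteins at the cell surface, had 25.1 CPM in the matured and 1.80 CPM in the yellow library and was 13.9-fold higher (95% interval 10.4 to 19.0). It was the only row called of 29, a share close to the 3.39% of all genes, and the median was 0.15. Lrp12, a relative of the lipoprotein receptors, had 20 CPM (matured) and 4.62 CPM (yellow) (4.33-fold higher, log2 ratio 1.90, not counted).

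Apolipoproteins and small lipid carriers had more called rows. Apoeb, an apolipoprotein E that carries lipid between cells and is abundant in macrophages of many vertebrates, had 3139.8 CPM in the matured and 143 CPM in the yellow library for g15956 and was 21.9-fold higher (95% interval 21.2 to 22.6), and apoeb g41003 had 39.9 CPM (matured) and 1.58 CPM (yellow) (25.3-fold higher). Across yellow, silver and matured ovary, g15956 had 143, 31.2 and 3139.8 CPM. Cellular retinol-binding proteins ran in both directions. Ret2 had 107 CPM (matured) and 11.8 CPM (yellow), 9.11-fold higher, and ret1 g7159 had 12.1 CPM (matured) and 0.226 CPM (yellow), 53.6-fold higher. The most abundant row of this family, ret7 g21210, had 479 CPM (matured) and 1160 CPM (yellow), 2.42-fold lower. Ret7 g21211 was 2.18-fold lower, while ret1 g10075 and ret7 g5198 were 2.47-fold and 2.63-fold higher. Heart-type fatty acid-binding protein (fabph) had 289.7 CPM (matured) and 59.5 CPM (yellow) for g8706 (4.87-fold higher) and 13.7 CPM (matured) and 0.489 CPM (yellow) for g8299 (28.03-fold higher). Clusterin (clus), a secreted chaperone, had 242 CPM (matured) and 78.6 CPM (yellow) and was 3.07-fold higher, below the threshold. Apol6 g13372 was the row called lower, with 11.8 CPM (matured) and 148 CPM (yellow), 12.5-fold lower. The list had 9 of 22 rows higher and 1 lower, and although its median was 0.08 it summed to 6376 CPM in matured and 3930.0 CPM in yellow ovary, of which apoeb g15956 alone gave 3139.8 CPM and 143 CPM.

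Water and ion transport genes were mixed. Aqp1, the water channel whose egg-borne form lets the eggs of marine fish swell before ovulation, had 80.8 CPM in the matured and 0.827 CPM in the yellow library for g214 and was 97.7-fold higher (95% interval 64.4 to 156). The other aqp1 row, g213, had 623 CPM (matured) and 1087 CPM (yellow) and was 1.74-fold lower, so that the 2 rows summed gave a log2 ratio of -0.63. S4a11, a bicarbonate transporter-like protein, had 33.6 CPM (matured) and 2.74 CPM (yellow) (12.2-fold higher). At1a1 g17727, the sodium pump's alpha subunit, had 43.9 CPM (matured) and 237 CPM (yellow) and was 5.39-fold lower (95% interval 5.10 to 5.71), with 49.7% of matured and 43.5% of yellow reads unique. Trpv6, a calcium channel of absorptive epithelia, had 0.549 CPM (matured) and 35.3 CPM (yellow) and was 64.4-fold lower (95% interval 40.97 to 107). Across 70 rows tested, 6 were higher and 4 lower, against 3.39% and 2.59% of all genes, and the median was -0.27.

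Genes tied to ovulation in vertebrates had few called rows, and their median was -0.21. Against 3.39% of all genes, egfr alone of 19 rows was called higher. This receptor for epidermal growth factors had 54.9 CPM (matured) and 6.16 CPM (yellow) and was 8.90-fold higher (95% interval 7.59 to 10.5). Of the cyclooxygenases, which start prostaglandin synthesis, pgh1 g9054 had 13.5 CPM (matured) and 19.9 CPM (yellow) and pgh2 g8347 0.694 CPM (matured) and 1.32 CPM (yellow), and the prostaglandin E2 receptor pe2r3 had 9.19 CPM (matured) and 39.0 CPM (yellow) (4.24-fold lower, log2 ratio -1.97, not counted). In the order yellow, silver and matured, the prostaglandin E synthase ptges stood at 56.5, 305 and 59.7 CPM.

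Immediate early genes, which many cells switch on within minutes of a stimulus, ran higher. Fos g12409 had 39.7 CPM in the matured and 2.48 CPM in the yellow library and was 16.01-fold higher (95% interval 12.5 to 20.8), and fos g3322 had 24.7 CPM (matured) and 2.89 CPM (yellow) (8.55-fold higher). Egr1 had 10.9 CPM (matured) and 0.489 CPM (yellow) (22.4-fold higher), and the stress-induced factor atf3 had 29.1 CPM (matured) and 4.36 CPM (yellow) (6.67-fold higher). Secreted products of the same response, cyr61 and ctgf g3764, had 23.5 CPM (matured) and 1.73 CPM (yellow) and 47.7 CPM (matured) and 4.51 CPM (yellow). In all, 8 of 24 rows were higher and none lower, with a median of 0.73. In the silver library fos g12409 was higher still, at 65.1 CPM.

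B-type cyclins were lower, while the cell cycle list as a whole had few called rows. Ccnb1 g2311, cyclin B1, which with its kinase drives entry into M phase and is stored in oocytes, had 1709 CPM in the matured and 6475 CPM in the yellow library and was 3.79-fold lower (95% interval 3.75 to 3.82), just under the threshold. A pair of ccnb2 rows passed it, with 224 CPM (matured) and 1057 CPM (yellow) for g19130 (4.72-fold lower) and 199 CPM (matured) and 973 CPM (yellow) for g19131 (4.89-fold lower), as did geminin (gemi), which blocks repeated replication, at 97.9 CPM (matured) and 424 CPM (yellow) (4.33-fold lower). Bir52, named as a copy of survivin, which serves chromosome segregation, went the other way, with 94.1 CPM (matured) and 18 CPM (yellow) (5.22-fold higher). The row named for survivin itself, birc5 of the apoptosis list, was lower, with 7.66 CPM (matured) and 22.2 CPM (yellow) (2.90-fold lower, not counted). Cdn1c, an inhibitor of cyclin-dependent kinases, had 47.5 CPM (matured) and 11.4 CPM (yellow) (4.17-fold higher, log2 ratio 1.97, not counted). The list summed to 15043 CPM in matured and 25697 CPM in yellow ovary, with 1 of 103 rows higher, 3 lower, shares close to or under those of all genes, and a median of -0.27 (-0.04 with library totals alone). DNA replication genes had a median of 0.02 with 1 of 105 rows called, namely dpoe1 g28980, the catalytic subunit of polymerase epsilon, at 16.6 CPM (matured) and 2.71 CPM (yellow). None of 15 meiosis and recombination rows was called, and the cohesin subunit of meiotic chromosomes smc1b had 34.6 CPM (matured) and 125 CPM (yellow) (3.61-fold lower).

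Histone genes had the lowest median of the pathway lists at -0.87 (-0.63 with library totals alone), with 43 of 53 measured rows below 0 and 6 of 36 called lower. H2a g35805 had 7.92 CPM (matured) and 108 CPM (yellow) and was 13.7-fold lower (95% interval 12.1 to 15.5), h2a g25786 had 2.63 CPM (matured) and 40.4 CPM (yellow) (15.4-fold lower), and h48, a histone H4, had 3.87 CPM (matured) and 41.2 CPM (yellow) (10.6-fold lower). H10, a linker histone that mammals make mainly in cells that have stopped dividing, was called higher, with 17.9 CPM (matured) and 2.18 CPM (yellow) (8.22-fold higher). Most replication-dependent histone messages lack a poly(A) tail in animals, so an mRNA library reads only a part of them.

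Collagen genes were higher in the matured ovary nearly throughout. Of collagen rows, 13 of 16 among those tested were called higher and none lower, and 28 of 33 measured rows were above a ratio of 0. Fibrillar type I collagen, the main protein of connective tissue, led the list: co1a1 g7014 had 279 CPM in the matured and 10.6 CPM in the yellow library and was 26.2-fold higher (95% interval 23.3 to 29.6), co1a1 g9398 had 238 CPM (matured) and 11.6 CPM (yellow) (20.5-fold higher), and co1a2 g11901 had 305 CPM (matured) and 17.3 CPM (yellow) and was 17.6-fold higher (95% interval 16.1 to 19.4). Chains of the pericellular type VI collagen followed, with co6a2 g8369 at 30.2 CPM (matured) and 1.503 CPM (yellow) (20.1-fold higher) and co6a1 at 28.2 CPM (matured) and 3.08 CPM (yellow) (9.14-fold higher). Of basement membrane collagens, co4a3 was at 19.7 CPM (matured) and 2.07 CPM (yellow) (9.51-fold higher) and co4a1 g936 at 11.4 CPM (matured) and 3.68 CPM (yellow) (3.10-fold higher, not counted). Copa1 ran the other way without reaching 4-fold, at 11.9 CPM (matured) and 23.1 CPM (yellow). The list summed to 1235 CPM in matured and 153 CPM in yellow ovary.

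Genes for proteins that bind or order collagen were also higher. Lum, the collagen-binding proteoglycan lumican, had 36.7 CPM in the matured and 0.789 CPM in the yellow library and was 46.5-fold higher (95% interval 30.3 to 75.4). Sprc (SPARC), a matricellular glycoprotein of remodelling tissue, had 281 CPM (matured) and 21.1 CPM (yellow) and was 13.3-fold higher (95% interval 12.3 to 14.6), and nid2, which links laminin and collagen in basement membranes, had 119.7 CPM (matured) and 5.56 CPM (yellow) and was 21.5-fold higher (95% interval 18.3 to 25.5). Serph, the collagen chaperone of the endoplasmic reticulum, had 20.6 CPM (matured) and 2.89 CPM (yellow) (7.12-fold higher). Among pgs2 (decorin) rows those called were g8899 at 11.8 CPM (matured) and 0.526 CPM (yellow) and g12395 at 32.0 CPM (matured) and 4.32 CPM (yellow). Epyc, the small proteoglycan epiphycan, was the row called lower, with 4.16 CPM (matured) and 28.9 CPM (yellow) (6.95-fold lower). Of 44 proteoglycan and matrix glycoprotein rows 9 were higher and 1 lower, and the median was 0.61.

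Matrix proteases and their inhibitors differed in both directions. Mmp11, a metalloproteinase made by stromal cells of remodelling tissue, had 65.3 CPM in the matured and 1.73 CPM in the yellow library and was 37.8-fold higher (95% interval 28.2 to 51.7). Its relatives mmp14 (g28696), which sits in the cell membrane, and mmp2, the gelatinase that it activates, were higher without reaching the threshold, at 39.8 CPM (matured) and 10.0 CPM (yellow) and 36.2 CPM (matured) and 15 CPM (yellow). Mmp20, best known from tooth enamel in mammals, had 1.42 CPM (matured) and 38.3 CPM (yellow) and was 27.0-fold lower (95% interval 20.3 to 36.8), and mmp25 had 1.99 CPM (matured) and 14.1 CPM (yellow) (7.05-fold lower). Among inhibitors, pai1, which blocks plasminogen activators, had 20.7 CPM (matured) and 0.677 CPM (yellow) (30.5-fold higher), and the broad protease trap a2mg had 325 CPM (matured) and 30.6 CPM (yellow) and was 10.6-fold higher (95% interval 9.90 to 11.4). In all, 5 of 28 rows were higher and 2 lower, with a median of 0.58. Cathepsins and lysosome genes had 2 of 73 rows higher, a share no larger than that of all genes, with cath (cathepsin H) at 22.9 CPM (matured) and 1.47 CPM (yellow) and catk, a collagen-cleaving cathepsin, at 40.6 CPM (matured) and 3.50 CPM (yellow), while the yolk-processing cathepsin catd g14549 had 217 CPM (matured) and 185 CPM (yellow) and catl1 g10929 59.5 CPM (matured) and 168 CPM (yellow).

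**Figure D5:**
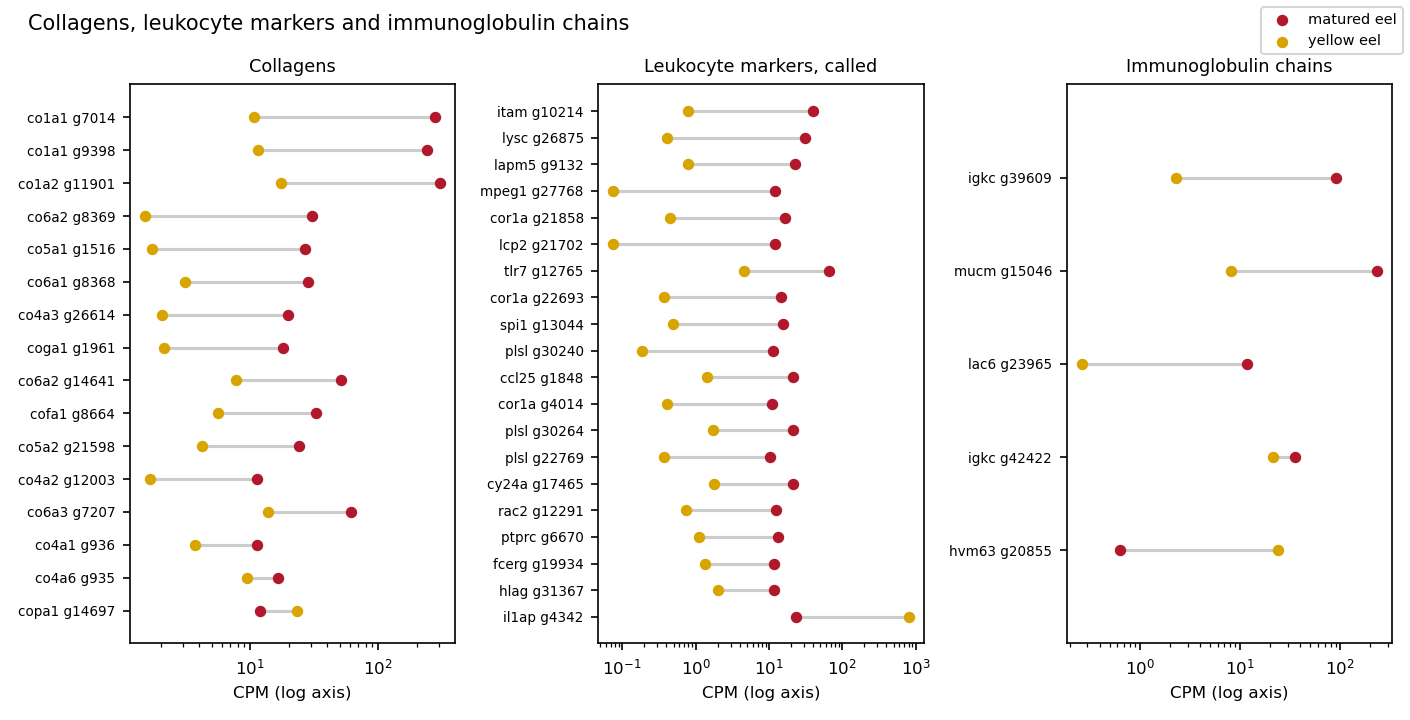
Levels in CPM (horizontal log axis) of collagen rows that reached 10 CPM in either library (left), of the leukocyte marker rows called in either direction (middle) and of immunoglobulin chain rows (right), with a red point for the matured and a yellow point for the yellow eel. Red points lie to the right in all collagen rows but copa1, in all leukocyte rows shown but il1ap, and in all immunoglobulin rows but hvm63.

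Growth factor signalling genes were mixed. Nogg2, a noggin that binds and blocks bone morphogenetic proteins, had 93.3 CPM in the matured and 2.33 CPM in the yellow library and was 40.0-fold higher (95% interval 31.1 to 52.3). Tgfb1, the growth factor that raises collagen synthesis in many tissues, had 10.1 CPM (matured) and 0.677 CPM (yellow) and was 14.9-fold higher (95% interval 9.29 to 25.4), and the activin-binding glycoprotein relative fstl1 had 45.9 CPM (matured) and 8.23 CPM (yellow) (5.57-fold higher). Smad3 g43866 and id1 g5955 were called lower, at 7.46 CPM (matured) and 52.2 CPM (yellow) and 15.4 CPM (matured) and 67.0 CPM (yellow). Smad3 had 2 other rows, at 3.99 CPM (matured) and 1.28 CPM (yellow) and 3.32 CPM (matured) and 2.89 CPM (yellow), and the transcript of the called row is 154 bases long. In the TGF-beta, BMP and activin list 3 of 29 rows were higher and 2 lower, against 3.39% and 2.59% of all genes, with a median of 0.36, and none of 7 rows of the insulin-like growth factor list was called. Ptn, the heparin-binding growth factor pleiotrophin, had 59.0 CPM (matured) and 1.13 CPM (yellow) and was 52.3-fold higher (95% interval 36.5 to 77.7).

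Markers of other cells differed between the libraries in both directions. Leukocyte markers had a median of 1.37, with 64 of 85 measured rows above 0 and 19 of 39 called higher. Ptprc (CD45), the surface phosphatase of white blood cells, had 13.3 CPM in matured and 1.13 CPM in yellow ovary, and the actin regulators coronin 1A (cor1a) and plastin-2 (plsl) summed to 42.4 and 42.9 CPM in matured and 1.24 and 2.29 CPM in yellow ovary. The macrophage growth factor receptor csf1r summed to 2.17 CPM in matured and 0.0376 CPM in yellow ovary. Itam, an integrin chain of myeloid cells, had 40.2 CPM in the matured and 0.789 CPM in the yellow library and was 50.9-fold higher (95% interval 33.2 to 82.5). Mpeg1, a pore-forming protein of macrophages, had 12.1 CPM (matured) and 0.0752 CPM (yellow) and was 161-fold higher (95% interval 44.4 to 1338). Rows of lysozyme, a bacterial wall enzyme of phagocytes, went opposite ways. Lysc had 31.1 CPM (matured) and 0.413 CPM (yellow) and was 75.3-fold higher (95% interval 41.9 to 151). Lysm g44166 had 16.96 CPM (matured) and 63.1 CPM (yellow) and was 3.72-fold lower, below the threshold. The macrophage and B cell transcription factor spi1 had 15.3 CPM (matured) and 0.489 CPM (yellow) (31.3-fold higher), and the toll-like receptor tlr7 had 65.1 CPM (matured) and 4.59 CPM (yellow) (14.2-fold higher).

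The sum over the leukocyte list was nonetheless 2806 CPM in matured and 3700.4 CPM in yellow ovary. Rows of cats, cathepsin S, and il1ap, the accessory protein of the interleukin-1 receptor, made up 1682 CPM of it in matured and 3056 CPM in yellow ovary, and the other rows summed to 1124 and 645 CPM in matured and yellow ovary. Cats and il1ap were set apart with their values known, so the direction of the remaining sum follows in part from that choice. Il1ap had 23.5 CPM in the matured and 805 CPM in the yellow library and was 34.2-fold lower (95% interval 31.9 to 36.8), the one leukocyte row called lower. With a minimum of 50 CPM the list kept 6 rows and its median turned to -0.61.

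Immunoglobulin chains summed to 383 CPM in matured and 58.0 CPM in yellow ovary. Mucm, the constant region of the membrane-bound mu heavy chain of B cells, had 234 CPM in the matured and 8.08 CPM in the yellow library and was 28.9-fold higher (95% interval 25.2 to 33.3), and the kappa chain igkc g39609 had 89.7 CPM (matured) and 2.29 CPM (yellow) (39.1-fold higher). The heavy chain row hvm63 ran the other way with 0.636 CPM (matured) and 24.1 CPM (yellow), 37.9-fold lower (95% interval 24.8 to 60.9). Complement components made by macrophages, c1qb and c1qc, had 21.1 CPM (matured) and 0.752 CPM (yellow) and 19.1 CPM (matured) and 0.677 CPM (yellow), co3 g14949 had 96.2 CPM (matured) and 16.4 CPM (yellow) (5.86-fold higher), and the copper carrier ceruloplasmin (ceru) was the row called lower, at 2.05 CPM (matured) and 31.7 CPM (yellow). Of 15 complement and plasma rows 5 were higher.

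Smooth muscle markers had 8 of 41 rows called higher, none lower and a median of -0.09, which turned to 0.17 with library totals alone. Acta, the smooth muscle actin, had 78.9 CPM in the matured and 0.827 CPM in the yellow library for g12122 and was 95.5-fold higher (95% interval 62.9 to 153). Desmin (desm), the intermediate filament of muscle, had 14.8 CPM in one row of the matured library and no reads of that row in the yellow library, at least 131-fold higher, and the actin-binding protein transgelin (tagl) had 95.4 CPM (matured) and 16.3 CPM (yellow) (5.85-fold higher). The other rows called were myh11 g2226 (14.1-fold higher), myl9 g18465 (13.7-fold), cnn2 (9.62-fold), cav1 g643 (8.25-fold) and myl9 g17901 (6.29-fold). A further myl9 row, g11086, had 248 CPM (matured) and 265 CPM (yellow). These 8 rows do not stand for the list by row count, since 42 of 76 measured rows were below a ratio of 0 and 34 above. That count takes each row singly, and many rows share the name flna (filamin A), most of them below 0. The list summed to 2449.8 CPM in matured and 2576 CPM in yellow ovary. Keratins of simple epithelia were higher in sum, with k2c8 at 281 and k1c18 at 338 CPM in matured against 66.0 and 199 CPM in yellow ovary. Row k1c18 g7586 went the other way, with 22.4 CPM (matured) and 164 CPM (yellow), 7.35-fold lower. Adhesion and junction genes ran both ways. Epcam and cadh1 were lower, at 8.21 and 305 CPM in matured and 14.7 and 469 CPM in yellow ovary. Desp g14215 was also lower, at 59.8 CPM (matured) and 90.6 CPM (yellow). Called higher were desp g14248 at 34.2 CPM (matured) and 3.61 CPM (yellow) and cld3 at 19.3 CPM (matured) and 3.08 CPM (yellow). Of 32 epithelial and mesothelial rows 6 were higher and 1, k1c18 g7586, lower.

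Markers of blood, vessel, muscle, fat, liver and nerve differed row by row. Haemoglobin rows hbaa, hbac, hbba and hbbc summed to 4.85, 9.10, 7.05 and 19.9 CPM in matured and to 0.526, 2.37, 2.52 and 6.09 CPM in yellow ovary, so that each was higher in matured ovary. Other erythrocyte markers ran both ways. Tal1 had 29.7 CPM (matured) and 21.6 CPM (yellow), and cahz 2.69 CPM (matured) and 0.564 CPM (yellow). Lower in matured ovary were rhag at 32.6 CPM (matured) and 52.1 CPM (yellow), hemh at 24.1 CPM (matured) and 26.3 CPM (yellow), and b3at at 0.549 CPM (matured) and 1.24 CPM (yellow). None of 4 erythrocyte rows tested was called. Endothelial markers ran both ways. Endothelial cadherin (cadh5) had 5.23 CPM in matured and 23.7 CPM in yellow ovary, and von Willebrand factor (vwf) 8.38 and 9.06 CPM. Tie2 had 9.54 CPM in matured and 1.503 CPM in yellow ovary, and peca1 0.780 and 0.0752 CPM. Stab1 had 16.4 CPM (matured) and 3.53 CPM (yellow) (4.63-fold higher, log2 ratio 1.94, not counted), and vgfr3 7.08 CPM (matured) and 0.940 CPM (yellow). S1pr2 had 26.4 CPM (matured) and 47.2 CPM (yellow), and vgfr2 6.53 CPM (matured) and 9.17 CPM (yellow). Of 3 endothelial rows tested, 0 were higher and 1, of cadh5, was lower. Among skeletal and cardiac muscle rows, 1 of 10 was higher and 1 lower, against 3.39% and 2.59% of all genes. Skeletal troponin tnnt3 was at 0 in both libraries. Myosin myh4 had 10.4 CPM (matured) and 1.09 CPM (yellow) (9.52-fold higher), and myh7 g10171 is given with the lowest genes further on. A further myh7 row, g23429, had 5.46 CPM (matured) and 0.564 CPM (yellow) (9.69-fold higher, under 10 CPM and so not tested). The slow muscle and heart troponin tnnc1 had 9.77 CPM (matured) and 0.150 CPM (yellow) (65.0-fold higher, under 10 CPM and so not tested). Troponin tnnc2 of skeletal muscle went the other way, with 2.83 CPM (matured) and 12.03 CPM (yellow) (4.25-fold lower, log2 ratio -1.77, not counted). Rows of the skeletal myosin myss summed to 2.34 CPM in matured and 10.79 CPM in yellow ovary. Those of the muscle creatine kinase kcrm summed to 4.19 CPM in matured and 1.58 CPM in yellow ovary. Of 14 adipocyte rows 3 were higher and 1 lower, against 3.39% and 2.59% of all genes. The adipocyte hormone adipo had 0.173 CPM in matured and 0.451 CPM in yellow ovary, lipl g9732 and g0s2 g10664 were among the rows called higher, g0s2 g11483 was lower, and the lipid droplet protein cidea had 701 CPM (matured) and 1727 CPM (yellow) for g9014. Of 10 hepatocyte rows 1 was higher, a2mg, and 2 were lower, bhmt1 among them, against the same 3.39% and 2.59%. The liver's plasma protein trfe had 0.202 CPM in matured and 0.601 CPM in yellow ovary. Nerve and glia had 1 of 9 rows lower and none higher. The row called lower was gbrl2, a receptor-associated protein that is not a defining nerve marker, at 7.08 CPM (matured) and 39.4 CPM (yellow). Of the defining markers, mbp had 5.58 CPM in matured and 2.10 CPM in yellow ovary. Mypr summed to 68.1 CPM in matured and 72.4 CPM in yellow ovary, and sn25a had 0.260 CPM in matured and 0 in yellow ovary. Leukocyte, immunoglobulin, smooth muscle and keratin rows thus differed between the same libraries as the collagen, steroid and lipid carrier rows, and their part in those results was not tested.

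Genes of basic metabolism were close to level. None of 124 cytosolic ribosomal protein rows was called, and their sum was 32984 CPM in matured and 30200.5 CPM in yellow ovary. None of 72 mitochondrial ribosomal rows and 1 of 102 nuclear rows of oxidative phosphorylation were called, namely cox8b g8392, a subunit of cytochrome c oxidase, at 8.70 CPM (matured) and 139 CPM (yellow), 16.01-fold lower (95% interval 14.2 to 18.1). Psb8, a catalytic subunit of the immunoproteasome, alone of 70 proteasome rows was called higher, with 11.4 CPM (matured) and 1.17 CPM (yellow) (9.77-fold higher). In turn 4 of 84 translation initiation rows were lower, against 2.59% of all genes. Among them was the poly(A)-binding protein pabp2 g14479 at 32.3 CPM (matured) and 155 CPM (yellow). Cholesterol synthesis had 2 of 20 rows higher, cp51a, the lanosterol demethylase, at 40.0 CPM (matured) and 6.88 CPM (yellow), and insi1, which holds back the sterol-sensing machinery, at 15.4 CPM (matured) and 1.43 CPM (yellow). Fatty acid synthesis and lipid droplet genes had 2 higher and 3 lower of 56, heat shock proteins 5 higher of 131 and apoptosis genes 2 higher of 42, where 3.39% of all genes were higher and 2.59% lower, so these shares stand near the background. The apoptosis rows were tnr5 g10082 (CD40, a receptor of immune cells) at 11.4 CPM (matured) and 0.827 CPM (yellow) and tnf12 at 17.6 CPM (matured) and 3.04 CPM (yellow). A more abundant tnr5 row, g9526, went the other way, with 26.1 CPM (matured) and 36.2 CPM (yellow) (1.39-fold lower, not counted). Rows derived from transposons and retroelements had 2 higher and 2 lower of 17.

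Genes outside the lists filled out both ends of the ranking. Tmc3, of the transmembrane channel-like family, had 54.9 CPM in the matured library and no reads in the yellow one, at least 487-fold higher, and 0.0795 CPM in the silver one. Folr1, the folate receptor that takes up the vitamin by endocytosis, had 63.5 CPM (matured) and 1.20 CPM (yellow) and was 52.8-fold higher (95% interval 37.3 to 77.4). Crgm2, a gamma-crystallin, a family known from the lens, had 48.2 CPM (matured) and 0.489 CPM (yellow) and was 98.6-fold higher (95% interval 57.5 to 186). Asb11, an adaptor of ubiquitin ligases, had 29.8 CPM (matured) and 0.150 CPM (yellow), from 1031 and 4 reads (198-fold higher). Prof1, the actin-binding protein profilin, and s10i, a calcium-binding S100 protein, had 95.3 CPM (matured) and 3.53 CPM (yellow) and 96.7 CPM (matured) and 3.57 CPM (yellow). Prg4, the joint lubricant lubricin, had 14.6 CPM in the matured library and no reads in the yellow one. The zinc finger protein zn648 and the PRA1 family protein praf2 had 72.8 CPM (matured) and 1.35 CPM (yellow) and 93.6 CPM (matured) and 1.95 CPM (yellow).

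At the other end, akd1, an adenylate kinase domain protein, had 1.07 CPM in the matured and 113 CPM in the yellow library and was 106-fold lower (95% interval 76.7 to 151). Bhmt1, which makes methionine from homocysteine with betaine, had 1.01 CPM (matured) and 74.9 CPM (yellow) and was 74.0-fold lower (95% interval 53.0 to 107). The silver library resembled the matured one for both, with 0.318 CPM of akd1 and 0.769 CPM of bhmt1. The amino acid transporter heavy chain 4f2 had 0.116 CPM (matured) and 53.1 CPM (yellow), from 4 and 1414 reads, and was 459.8-fold lower (95% interval 179 to 1689.9). Gckr, which inhibits glucokinase in liver, had 7.95 CPM (matured) and 219 CPM (yellow) and was 27.6-fold lower (95% interval 24.4 to 31.2). Tbx6, a T-box factor of mesoderm formation, had no reads in the matured library and 23.2 CPM in the yellow library, at least 268-fold lower. Irx1, a homeodomain factor, had 2.05 CPM (matured) and 49.4 CPM (yellow) (24.1-fold lower), and jub, ajuba, a protein of cell junctions, had 4.36 CPM (matured) and 101 CPM (yellow) (23.1-fold lower). Kpcd1, a protein kinase of the D family, had 0.520 CPM (matured) and 33.1 CPM (yellow) (63.7-fold lower), and the Ras activator rgrf2 had 3.03 CPM (matured) and 66.9 CPM (yellow) (22.1-fold lower). The palmitoyltransferase zdhc3, the motor kif1b and the myosin heavy chain myh7 g10171 had 5.81 CPM (matured) and 109 CPM (yellow), 8.96 CPM (matured) and 147 CPM (yellow) and 1.13 CPM (matured) and 38.3 CPM (yellow). Another myh7 row, g23429, went the other way at low levels, with 5.46 CPM (matured) and 0.564 CPM (yellow).

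Per kilobase of transcript, several of the most abundant named rows ran lower in the matured ovary without reaching 4-fold. Zp2 had 5278 CPM per kilobase in matured and 7943 in yellow ovary, ccnb1 g2311 had 778 in matured and 2949 in yellow ovary, and the claudin-like tight junction protein cldy g5749 had 1552 in matured and 5256 in yellow ovary. Histone h2a g1631 had 953 CPM per kilobase in matured and 2103 in yellow ovary.

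Rows without a protein name held a larger share of the differences. Of 1458 such rows tested, 87 (5.97%) were higher and 113 (7.75%) lower, together 13.7%. Of 11095 named rows, 339 (3.06%) were higher and 212 (1.91%) lower, together 4.97%. Several unnamed rows were among the most abundant of all. Row g38355, 195 bases long, had 21729 CPM in the matured and 1524 CPM in the yellow library and was 14.3-fold higher, and g43896 had 9254 CPM (matured) and 178 CPM (yellow) (52.1-fold higher). Row g45425, 129 bases long, went the other way with 5306 CPM (matured) and 24687 CPM (yellow) (4.65-fold lower). Unnamed rows took 18.3% of matured and 16.5% of yellow reads, and the 10 most abundant rows 11.98% of matured and 11.7% of yellow reads. Called genes also differed in length, with a median transcript of 2274 bases for higher, 1112 bases for lower and 1955 bases for all tested genes, and the running median of the log2 ratio was 0.29 at 4000 bases and -0.07 at 500 bases. Whether RNA quality moved with length was not tested.

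Rows that share a name did not always run the same way. Among 8018 tested names, 316 had a row called higher and 193 a row called lower, and 5 had both (abca1, g0s2, grip2, k1c18 and nr5a2). Abca1, the cholesterol exporter, had 43.6 CPM (matured) and 7.14 CPM (yellow) for g4770 and 9.07 CPM (matured) and 44.6 CPM (yellow) for g1133. G0s2, an inhibitor of fat breakdown, had 16.6 CPM (matured) and 1.32 CPM (yellow) for g10664 and 5.98 CPM (matured) and 31.3 CPM (yellow) for g11483. Keratin k1c18 had 198 CPM (matured) and 20.5 CPM (yellow) for g5911 and 22.4 CPM (matured) and 164 CPM (yellow) for g7586. At least 2 rows were called higher in 20 names and lower in 18, and whether such rows are true gene copies or pieces of 1 gene was not tested.

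Genes just inside and just outside the threshold differed little. Cd81, a membrane tetraspanin, had 29.5 CPM (matured) and 6.62 CPM (yellow) and a log2 ratio of 2.003, which counts as higher, and upar, the urokinase receptor, had 10.9 CPM (matured) and 1.99 CPM (yellow) and 1.99, which does not. On the lower side aibp had 19.5 CPM (matured) and 81.3 CPM (yellow) and was counted, while h2a g44383 had 11.7 CPM (matured) and 49.7 CPM (yellow) and was not. In the authors' deposited table, which the file headers trace to DESeq run without replicates on a variance over all 3 libraries, 128 of 38539 genes had an adjusted p-value under 0.1, 78 of them higher and 50 lower in the matured eel. Of these, 63 and 34 were also called here as higher and lower. The lowest adjusted p-values in the authors' deposited table belonged to tmc3 (1.56e-05), vmo1 and 4f2 (6.66e-05 each) and tbx6 (0.000156), and cp17a g22995 had 0.000783 there. Those p-values treat the 3 life stages as if their eels were replicates for the variance, and they do not measure the spread between eels of 1 stage.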

How the data were processed

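Per the labels' protocols, total RNA of pooled gonad tissue of each eel was made into an Illumina mRNA library. Gene models came from Augustus, their names from Blast2GO, and the alignment and counting of reads from CLC bio software, per the file headers. TopHat2 2.0.5, CASAVA, HTSeq, SAMtools 0.1.18 and DESeq stand in the submitters' processing notes without a role. Neither the genome build nor a use of strand in counting is given in the sources used here.

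The counts used are those the authors deposited as corrected total reads, with reads of several alignments shared out between genes, per the file headers. The authors' counts of uniquely aligned reads, 98.2% of the matured and 97.9% of the yellow total, served as an alternative. The deposited RPKM values, another alternative, divide the same reads by transcript length and library size, per the file headers. The deposited fold (matured over yellow, a ratio), p-values and adjusted p-values come from the authors' DESeq run without replicates. The deposited log2 fold change, which the authors adjusted so that none was infinite, is not the plain log2 of that fold, and no more than its sign is used here. A line of column totals and 1 blank line were left out.

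Counts were scaled with TMM factors of edgeR 4.0.16 in R 4.3.3, computed over all 3 libraries (1.15 matured, 0.957 yellow, 0.910 silver). In CPM, a floor of 3 counts is 0.0867 in the matured and 0.113 in the yellow library, and a fold against a library with no reads is a bound against that floor. List medians used rows with at least 1 CPM on average of both libraries. Folds are ratios of scaled counts with exact conditional binomial intervals. All other steps ran in Python 3.11.15 (scipy 1.17.1, matplotlib 3.10.9, pandas 2.3.3, numpy 2.4.6). No p-value was computed. In simulated counts for this comparison with Poisson error alone, 50 of 50 genes changed 8-fold upwards were called, against 0 of 50 changed 2-fold upwards and 0 of 11325 unchanged genes, which says nothing about differences between eels.

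The gene lists, the marker lists and the genes named were chosen with earlier results of these data known, so no list is independent support for its direction. Genes named are the 20 highest and 20 lowest named rows, up to 5 rows of each list, a fixed set of 35 ovarian genes, and the most abundant rows per kilobase. The names catl1 and catl2 were added to that fixed set. Further rows are named where they share a name with these, where they are members of a list that a result turns on, or as defining markers, near the threshold or in the authors' table. Rows that share a name were kept apart unless said otherwise.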

Additional observations from a re-analysis of the deposited data

How the results depend on the processing

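With DESeq2 1.42.0 size factors, TMM over the matured and yellow libraries alone, library totals alone, RPKM, unique reads, a pseudocount of 0.1 CPM, the length trend removed, shared names summed, the counting interval past 4-fold or, added after seeing the data, rows of low unique share left out, 326 to 628 genes were higher and 217 to 397 lower. A minimum of 1 CPM or none gave 671 higher, and a minimum of 50 CPM gave 86 higher and 111 lower. A pseudocount of 5 CPM gave 149 higher and 132 lower, a 2-fold threshold 1426 higher and 1933 lower, and an 8-fold threshold 158 higher and 67 lower. Changes of sign were sought only in list medians at least 0.5 from 0 and in genes called at 4-fold. The leukocyte median turned to -0.61 at 50 CPM. That of the hepatocyte list, -0.52, turned to 0.00162 with no minimum and 0.0366 with shared names summed. Summing shared names turned g0s2 to -0.52, desp to -0.0104, dnjb4 to -0.21, harb1 to -0.71, aqp1 to -0.63, elov1 to -0.90, nr5a2 to -1.01 and k1c18 g7586 to 0.75, since the summed rows run both ways. In all, 2445 of the single gene values moved by less than counting error, 804 moved further and 8, of genes called at 4-fold, changed sign. The 2445 include 285 values each for a minimum of 1 CPM and for none, and 122 for a minimum of 50 CPM. A minimum leaves a single gene's ratio unchanged, so these values could not move. Another 285 came from TMM over the matured and yellow libraries alone, which scales these libraries against each other almost as before. Genes with no reads in 1 library were judged against a log2 move of 1 in place of counting error. Sign changes of genes not called were not counted apart and lie within the 2445 and the 804. No paired analysis was possible because each stage is 1 library, and none can be left out. The spread between eels of 1 stage cannot be judged from these libraries.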
